A study of Mus musculus with 20 samples.

Results

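The collagen gene family was followed across mouse melanomas as every array row whose gene symbol was exactly Col, a number, the letter a and a number, with the row of the highest mean kept for each symbol. The rule found 42 genes among 19504 named genes, each with 1 row on the array. By the structure that their proteins build, 11 were fibrillar, 6 belonged to the basement membrane network, 6 to the beaded filaments, 8 were fibril-associated, 3 formed short-chain networks, 4 were transmembrane, 2 were multiplexins and 2 (Col26a1 and Col28a1) were placed in no class. Of the 42, 36 lay above the 30th percentile of the mean level of all genes, and Col4a3, Col4a5, Col6a4, Col9a1, Col17a1 and Col24a1 lay below it. Col7a1, Col12a1 and Col21a1 had no matching row and were not analysed here.

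The 20 arrays came from tumors of 2 mouse lines. Both carried Tyr::CreERT2, a tamoxifen-activated Cre recombinase under the promoter of the melanocyte gene tyrosinase, and 2 copies of BrafCA, which Cre turns into an oncogenic form of BRAF, and the line with these alleles alone is called B. The line called B;p38α also carried floxed alleles of p38α (gene Mapk14), a stress-activated kinase, so that the deletion is directed to cells in which the tyrosinase promoter is active. Skin of the pups received 4-hydroxytamoxifen at 5 mg/ml on days 2.5 and 3.5, and a UVB dose of 6.24 kJ per square metre on day 3.5, and the tumors were collected at endpoint. RNA came from complete tumors (5 arrays of B, 3 of B;p38α), from cells taken out with magnetic beads for CD45, the common leukocyte antigen (CD45+, 3 and 3), and from the cells left behind (CD45-, tumor and stroma, 3 and 3). All values are log2 expression levels, so that a difference of 1 is a doubling, and differences passed at a limma p-value under 0.05 after Benjamini-Hochberg adjustment over all 19504 genes.

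Collagens are triple helices, and each gene encodes a single kind of chain. Fibrillar collagens assemble into the tensile cables of skin, fibril-associated members sit on those cables, the type IV chains form the sheet under epithelia and around vessels, and type VI chains form beaded filaments close to cells. In skin and in tumors most fibrillar collagen is made by fibroblasts, and its chains are hydroxylated, folded, trimmed and crosslinked by dedicated enzymes.

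Array medians lay between 6.75 and 7.02. The outlying array was B CD45- replicate 1: its values spread least (interquartile range 2.95, elsewhere 3.41 to 3.89), and across genes it correlated with its group mates at a median r of 0.911. The pair with the highest r across genes (0.991) was replicates 1 and 2 of the B;p38α CD45+ group. The labels call the samples biological replicates and do not tie them to animals, and the p-values therefore measure only how far these arrays spread, which may be partly technical. For Mapk14 the difference of B;p38α minus B was -0.27 (SE 0.15) for whole lesions, -0.18 (SE 0.17) for CD45+ cells and -0.16 (SE 0.22) for CD45- cells, with limma adjusted p of 0.807, 0.672 and 0.803 and two-sided exact permutation p of 0.0714, 0.300 and 0.400, where the smallest possible are 0.0357, 0.100 and 0.100. Whether its probes lie in the deleted part was not stated, and these values do not check the labels. Ptprc, which encodes CD45, averaged 11.47 ± 0.42 (SD, n = 3) in B;p38α CD45+ cells against 7.93 ± 0.99 in CD45- cells, and in B it was 11.74 or more in CD45+ cells against a mean of 9.76 ± 0.17 in CD45- cells. Melanocyte markers were uneven. As group means, the pigment enzyme gene Tyr stood at 3.78 to 4.69 and Pmel at 4.49 to 5.28, Mlana at 5.04 to 7.32, the lineage factor Mitf at 7.61 to 9.03, and Sox10, of the melanocyte and Schwann cell lineages, at 9.87 to 11.40. The mean of the 10 markers was 7.64 in B complete replicate 1, where Tyr was 6.07, Pmel 7.24, Tyrp1 8.44 and Dct 8.70, and 5.48 to 6.48 on the other 19 arrays.

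Selection for CD45 asked where collagen transcripts lay among the dissociated cells. Collagens were higher in the CD45- cells: of the 42, 9 passed as higher and 0 as lower, against 4.37% and 7.79% of all genes, and 41 of 42 differences were positive. The median difference of the family was 0.55, against 0.08 over all genes. Those that passed were 4 fibrillar chains, 2 of type VI, 2 fibril-associated members and 1 multiplexin. In 6 of the 42 the 6 CD45- arrays lay wholly above the 6 CD45+ arrays, which held for 1.62% of all genes, and 0 lay wholly below (5.78%). In such bulk samples, fewer cells of a type and less RNA per cell cannot be told apart.

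Among the fibrillar chains, all 11 differences were positive (median 0.58). Type V collagen, a minor partner that controls the width of type I fibrils, moved furthest. Its chain Col5a1 stood at 8.80, 8.54 and 8.59 in B CD45+ cells and at 9.62, 9.69 and 8.93 in B;p38α CD45+ cells. In CD45- cells it stood at 9.72, 9.75 and 10.09 in B and at 10.18, 10.04 and 10.53 in B;p38α. Every CD45- array was thus above every CD45+ array, although B;p38α CD45+ replicates 1 and 2 came close to the lowest B CD45- arrays. The difference was 1.02 (SE 0.16, 2.03-fold, adjusted p = 0.0017). The partner chain Col5a2 had CD45+ values of 8.94, 9.12 and 9.04 in B and 9.83, 9.78 and 9.70 in B;p38α. Its CD45- values were 10.19, 9.97 and 10.38 in B and 9.99, 10.60 and 11.02 in B;p38α. The populations again did not overlap, and the difference was 0.96 (SE 0.17, adjusted p = 0.00308). Col5a3, the third type V chain, differed by 0.65 (SE 0.15, adjusted p = 0.016) with overlap, since B;p38α CD45- replicate 1 (7.10) lay below all 3 B;p38α CD45+ arrays (7.20, 7.43 and 7.20).

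Type I collagen, the main tensile protein of the dermis, is a trimer of Col1a1 and Col1a2 chains. Col1a2 ranged from 12.03 to 12.38 in the 6 CD45+ arrays and from 12.47 to 13.17 in the 6 CD45- arrays, with no overlap, and differed by 0.63 (SE 0.14, adjusted p = 0.0108). Col1a1 had a like difference of 0.58 (SE 0.18) and missed the threshold (adjusted p = 0.0649), with 12.04 in B CD45- replicate 2 and 12.17 in replicate 1 of the B;p38α CD45- arrays, both inside the CD45+ range of 11.46 to 12.19. Col3a1, its companion in elastic skin, differed by 0.49 (SE 0.19, adjusted p = 0.125), and Col27a1 by 0.61 (SE 0.19, adjusted p = 0.0609). The cartilage chains Col2a1 (0.51), Col11a1 (0.34) and Col11a2 (0.28) and the dim Col24a1 (0.12) did not pass.

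The beaded-filament chains were positive in 6 of 6 members (median 0.83), of which 2 passed. Col6a1 read 10.13, 10.46 and 10.39 in B CD45+ cells and 10.86, 10.73 and 10.56 in B;p38α CD45+ cells. Its CD45- values were 11.43, 11.19 and 11.43 in B and 11.09, 11.37 and 11.77 in B;p38α, all above every CD45+ array. It differed by 0.86 (SE 0.14, adjusted p = 0.00203). Col6a2, which shares the trimer with Col6a1, differed by 0.88 (SE 0.20, adjusted p = 0.0129), also without overlap. The third chain of the trimer, Col6a3, differed by 0.75 with an SE of 0.38 (adjusted p = 0.265). Its spread was wide in CD45- cells, where B;p38α replicate 1 stood at 8.24 and replicate 3 at 10.50. The chains that can take the place of Col6a3, namely Col6a5 (0.99, SE 0.49) and Col6a6 (0.80, SE 0.52), had large differences within a large spread, and the dim Col6a4 had 0.02.

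To show the start regions of a chain each of types I, V and VI that was higher in CD45- cells without overlap, the windows of Col1a2, Col5a1 and Col6a1 are given from RefSeq (GRCm38.p6), from 250 bases before to 50 bases after the annotated start, 5′ to 3′ on the strand of the gene. Capitals mark matches on either strand to the TATA box (TATAAA), the CCAAT box (CCAAT), the GC box (GGGCGG) and the AP-1 site (TGACTCA). They lie at chr6:4505368-4505667 (plus strand), chr2:27886175-27886474 (plus strand) and chr10:76725995-76726294 (minus strand).
Col1a2: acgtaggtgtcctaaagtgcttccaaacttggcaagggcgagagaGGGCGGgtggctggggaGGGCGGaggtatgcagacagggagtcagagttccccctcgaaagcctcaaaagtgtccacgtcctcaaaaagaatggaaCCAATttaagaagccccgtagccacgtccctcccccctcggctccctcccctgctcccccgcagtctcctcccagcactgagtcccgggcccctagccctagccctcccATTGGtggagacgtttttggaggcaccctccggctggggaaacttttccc
Col5a1: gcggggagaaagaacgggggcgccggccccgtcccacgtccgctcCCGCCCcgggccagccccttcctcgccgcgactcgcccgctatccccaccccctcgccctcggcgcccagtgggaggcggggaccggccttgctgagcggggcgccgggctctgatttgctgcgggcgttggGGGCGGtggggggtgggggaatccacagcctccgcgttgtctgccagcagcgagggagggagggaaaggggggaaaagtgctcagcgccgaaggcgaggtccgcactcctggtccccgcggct
Col6a1: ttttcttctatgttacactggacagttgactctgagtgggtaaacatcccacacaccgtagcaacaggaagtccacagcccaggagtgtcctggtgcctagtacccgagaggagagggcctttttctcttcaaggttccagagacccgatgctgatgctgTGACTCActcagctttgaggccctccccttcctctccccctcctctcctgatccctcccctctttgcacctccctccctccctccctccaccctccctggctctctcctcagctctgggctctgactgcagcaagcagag
The Col1a2 window held 2 CCAAT boxes and 2 GC boxes, the Col5a1 window 2 GC boxes, and the Col6a1 window 1 AP-1 site, 90 bases before the start. Windows were found for 34 of the 42 collagens. They were not found for Col1a1, Col2a1, Col4a3, Col5a2, Col9a3, Col14a1, Col22a1 and Col26a1. A GC box lay in 21 of the 34 windows (61.8%), against 35.7% of all 32851 windows of that length. Those were not cut to 1 per gene, as the collagen windows were, so the shares differ in kind and were not tested. A CCAAT box lay in 11 (32.4%, against 37.4%), a TATA box in 5 (14.7%, against 13.6%) and an AP-1 site in 1 (2.94%, against 5.2%). These matches describe the letters of the windows and were not tested for binding.

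Fibril-associated members were positive in 8 of 8 (median 0.36), and 2 passed. Col16a1, which links fibrils to their surroundings, differed by 0.66 (SE 0.19, adjusted p = 0.045), and Col9a3 by 0.59 (SE 0.17, adjusted p = 0.0474). Both calls were at the edge. Col16a1 lost its call in 11 and Col9a3 in 10 of 12 fits that left out 1 array, with adjusted p up to 0.102 and 0.112. Col14a1 (0.71, SE 0.32) and Col20a1 (0.76, SE 0.27, adjusted p = 0.102) had larger differences with larger errors, while Col9a1, Col9a2, Col19a1 and Col22a1 lay between 0.11 and 0.13.

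The type IV chains of the basement membrane were positive in 6 of 6 members (median 0.38), and 0 passed. Col4a1 and Col4a2, which together form the common type IV trimer, differed by 0.44 (SE 0.26, adjusted p = 0.341) and 0.52 (SE 0.24, adjusted p = 0.202). In B the CD45- arrays of Col4a1 (10.48, 10.14 and 10.92) lay above the CD45+ arrays (9.64, 9.83 and 9.96). In B;p38α they did not, since CD45- replicate 1 stood at 9.41 below all 3 CD45+ arrays (9.97, 9.98 and 10.24). Col4a3 had 0.80 (SE 0.36), Col4a5 0.33, Col4a4 0.24 and Col4a6 0.18.

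Col4a1 and Col4a2 are shown because they are transcribed away from each other from nearly the same point of chromosome 8. Their annotated starts overlap by 22 bases, at chr8:11312777-11313076 (minus strand) and chr8:11312555-11312854 (plus strand) for the windows below.
Col4a1: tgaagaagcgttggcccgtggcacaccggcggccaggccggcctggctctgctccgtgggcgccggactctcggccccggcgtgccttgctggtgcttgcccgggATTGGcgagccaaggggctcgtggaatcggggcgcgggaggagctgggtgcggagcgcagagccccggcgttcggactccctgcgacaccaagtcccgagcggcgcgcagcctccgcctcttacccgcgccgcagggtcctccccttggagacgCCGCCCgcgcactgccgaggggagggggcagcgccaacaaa
Col4a2: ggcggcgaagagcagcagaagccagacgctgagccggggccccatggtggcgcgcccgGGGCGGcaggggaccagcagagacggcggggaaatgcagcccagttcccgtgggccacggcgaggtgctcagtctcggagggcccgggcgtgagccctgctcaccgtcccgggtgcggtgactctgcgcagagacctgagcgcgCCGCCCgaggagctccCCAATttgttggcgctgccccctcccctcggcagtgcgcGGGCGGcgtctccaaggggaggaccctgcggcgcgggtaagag
Each window held 1 CCAAT box, and the Col4a2 window 3 GC boxes against 1 for Col4a1. The windows overlap, and the GC box of Col4a1 is the same stretch as the last GC box of Col4a2, read on the other strand. In the 3 comparisons given here their differences lay side by side: 0.44 and 0.52 for CD45- against CD45+ cells, 0.45 and 0.60 for CD45- cells against complete tumors, and -0.59 and -0.53 for the genotypes in complete tumors. None of these 6 values passed. Col4a6 and Col4a5 on chromosome X also lie head to head, with starts 1342 bases apart, and gave 0.18 and 0.33, -0.23 and 0.00, and -0.15 and 0.36 in the same order. Col4a4 and Col4a3, neighbours on chromosome 1, gave 0.24 and 0.80, 0.31 and 0.57, and 0.04 and 0.33. Without a window for Col4a3 the distance between their starts was not computed. Col4a3 and Col4a5 lay below the 30th percentile of mean level. A link between the position of the starts and these values was not tested.

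The multiplexins, which sit where basement membranes meet fibrils, were Col15a1 at 0.77 (SE 0.19, adjusted p = 0.0208) and Col18a1, the precursor of endostatin, at 0.61 (SE 0.23, adjusted p = 0.117). Col15a1 lost its call without B;p38α CD45+ replicate 3 (adjusted p = 0.0505) or without B;p38α CD45- replicate 2 (adjusted p = 0.0551). Among the transmembrane collagens, Col23a1 had 0.60 (SE 0.21, adjusted p = 0.0919), Col25a1 0.22 and Col13a1 0.11. Col17a1, the hemidesmosome collagen of basal keratinocytes, had -0.04, the single negative value of the family. Of the short-chain collagens, Col8a1 had 0.75 (SE 0.31, adjusted p = 0.157), Col8a2 0.22 and Col10a1 0.07. Col26a1 had 0.63 (SE 0.47) and Col28a1 0.15.

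**Figure D1:**
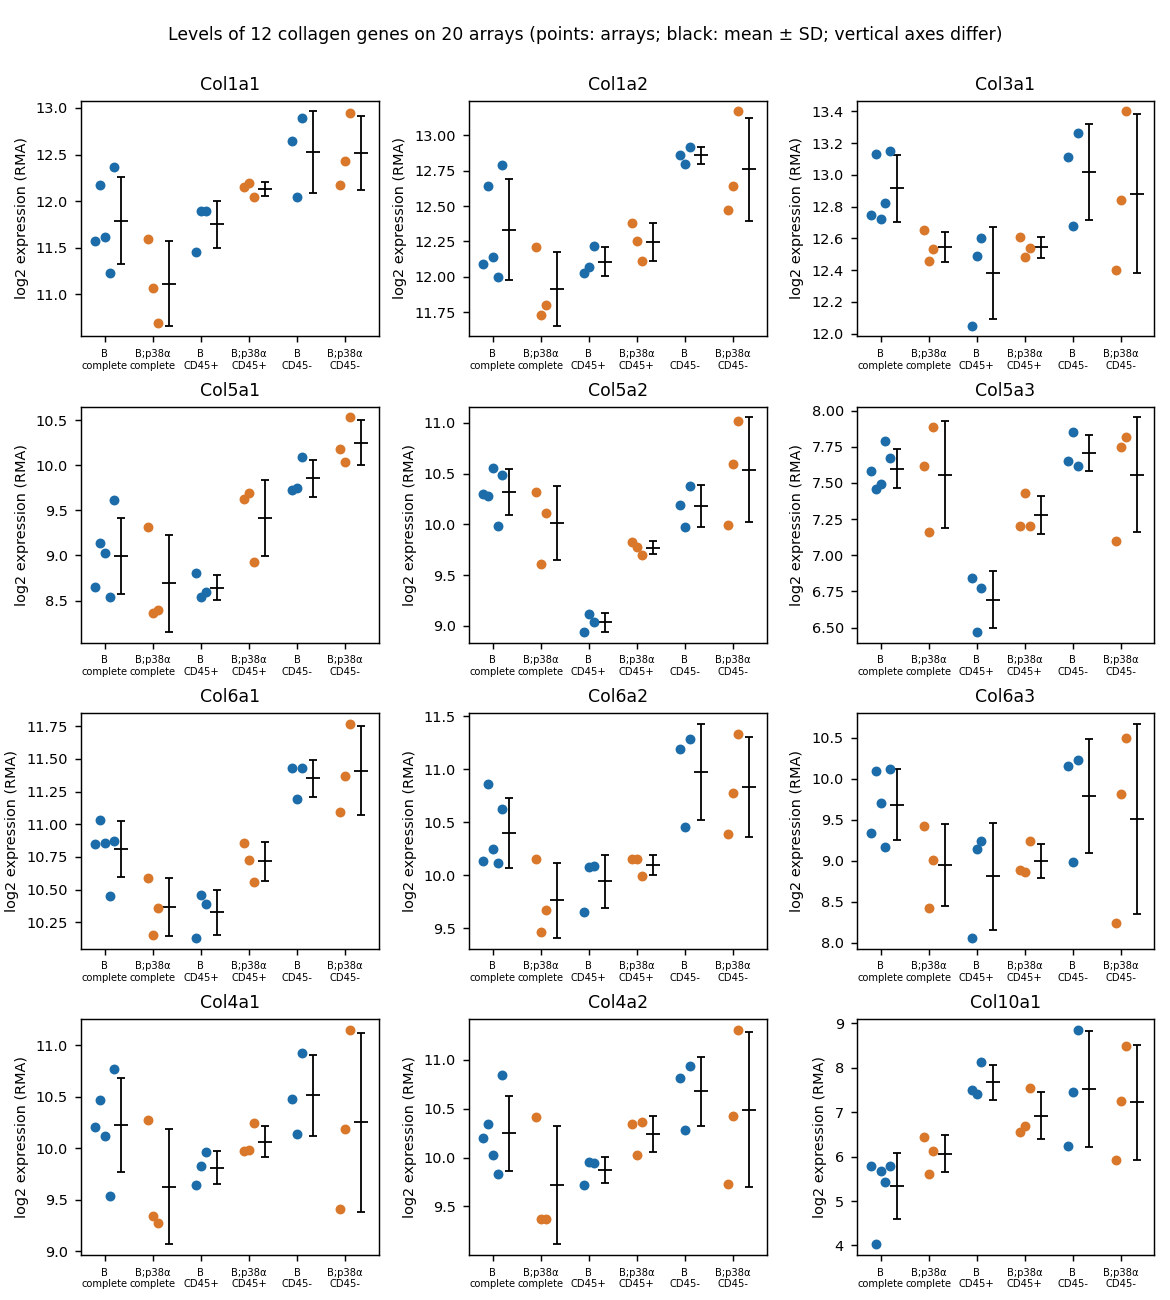
Log2 expression of 12 collagen genes on the 20 arrays, by group on the horizontal axis, with points for arrays (blue for B, orange for B;p38α) and black bars for the group mean ± SD. For Col5a1, Col5a2, Col6a1, Col6a2 and Col1a2 all CD45- points lie above all CD45+ points, and for Col10a1 the complete tumors are low (means 5.34 and 6.06).

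The genes that build and use collagen were read beside the family. Of all genes, 4.37% passed as higher in CD45- cells and 7.79% as lower. Of 16 measured genes for collagen modification and folding, 7 passed as higher in CD45- cells and 0 as lower (median 0.53), led by the lysyl hydroxylase Plod2 (0.87, SE 0.13), P3h3 (0.75, SE 0.12), P3h1 (0.74, SE 0.14) and the collagen chaperone Serpinh1 (0.74, SE 0.12). Of 11 maturation and crosslinking genes, 3 passed as higher, namely the procollagen proteinases Adamts14 (1.03, SE 0.27) and Bmp1 (0.91, SE 0.16) and the lysyl oxidase-like Loxl3 (0.73, SE 0.15). Of 9 fibril-regulating proteoglycans, 0 passed, with 9 positive (median 0.52), and Podn (0.99, SE 0.36) and Ogn (0.86, SE 0.57) were the largest. Among 8 receptors, Mrc2, which takes up collagen, was higher (0.97, SE 0.28) and Lair1, an inhibitory collagen receptor of leukocytes, was lower (-2.99, SE 0.36). Among 10 degradation genes 5 passed as higher and 2 as lower: the leukocyte collagenase Mmp8 (-1.44) and gelatinase Mmp9 (-1.55) were lower, and the inhibitor Timp1 (1.15) and the membrane collagenase Mmp14 (0.71) were higher. Of 12 TGF-beta pathway genes, 0 passed as higher, and Tgfbr1 (-0.97) and Skil (-0.83) were lower.

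Cell type markers moved in the same comparison, in which 4.37% of all genes passed as higher and 7.79% as lower. All 10 leukocyte markers were lower in CD45- cells (median -2.79), with group means of the list at 11.10 and 10.82 in CD45+ and 9.09 and 7.57 in CD45- cells of B and B;p38α. Of 11 fibroblast markers 2 passed as higher, with 11 positive and a median of 0.86, and the list stood at 7.41 and 7.73 in CD45+ and 8.24 and 8.56 in CD45- cells. Of 8 Schwann and neural crest markers 4 passed as higher (median 0.84). Of 9 endothelial markers 7 passed as lower (median -1.30), with list means of 9.53 and 8.88 in CD45+ and 8.04 and 7.79 in CD45- cells. The pericyte and smooth muscle list stood at 9.13 and 9.37 in CD45+ and 8.67 and 8.88 in CD45- cells. The CD45+ samples thus also carried stromal and vessel markers, and their collagen levels are not shown to be those of leukocytes. The part of these markers in the collagen differences was not tested.

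**Figure D2:**
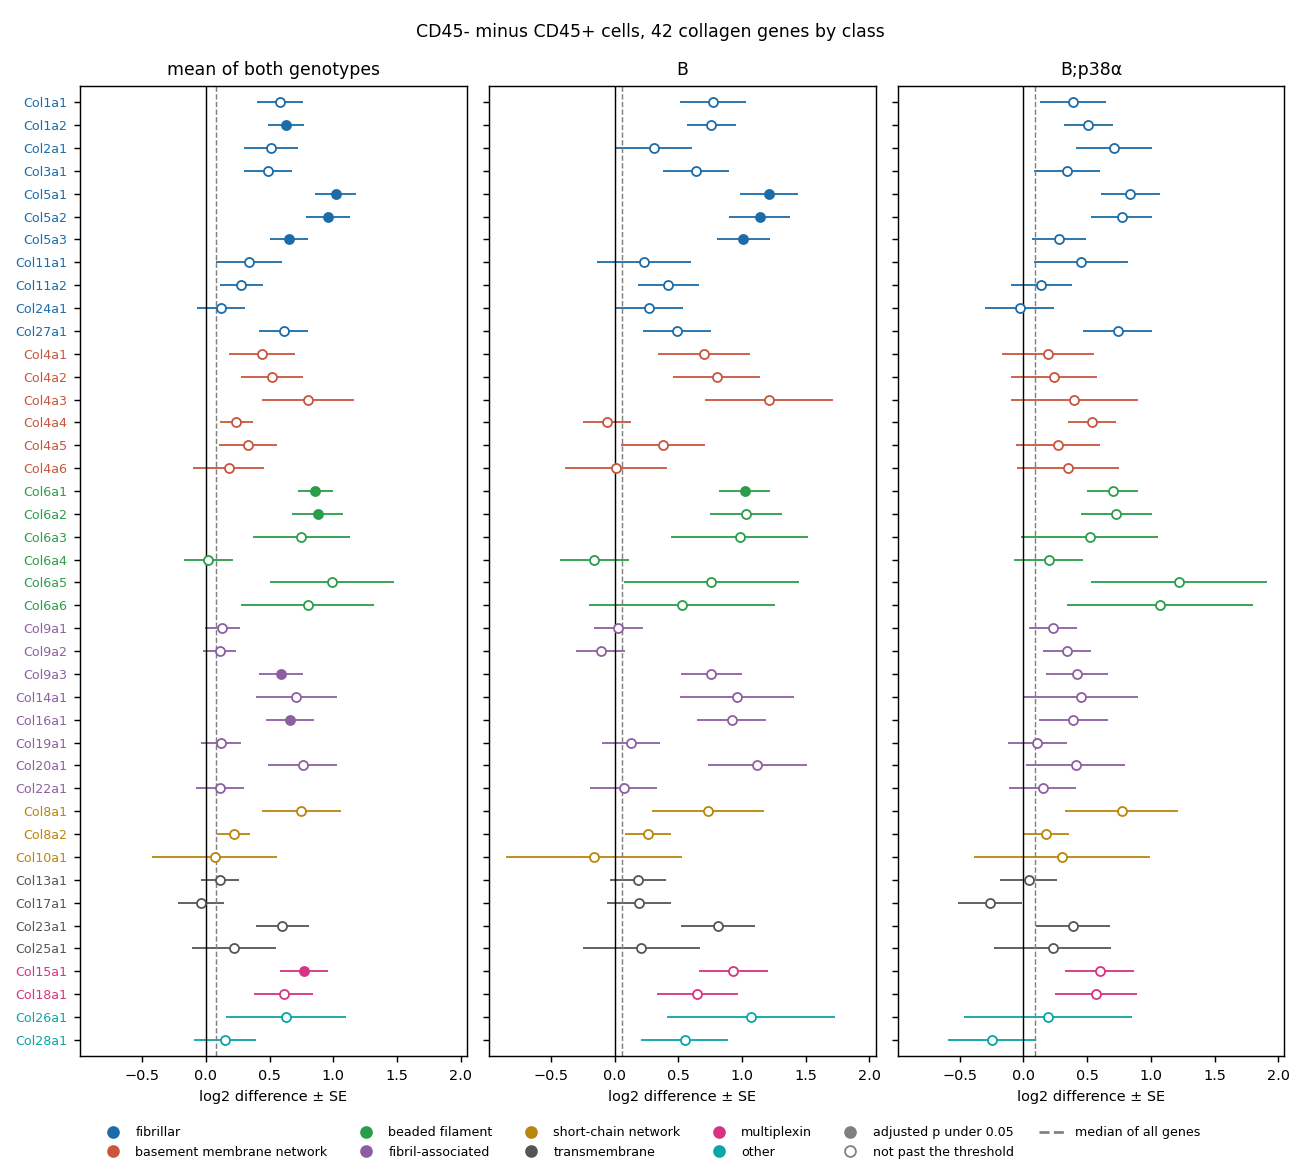
Differences of CD45- minus CD45+ cells for 42 collagen genes by class, in log2 units with bars for ±1 SE, for the mean of both genotypes and for each genotype. Filled points passed at an adjusted p under 0.05 (9, 4 and 0 genes), the dashed line is the median of all genes, and nearly all points lie to the right of 0.

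Taken by genotype, the sort difference passed for 4 collagens in B and for 0 in B;p38α. In B, 0.759% of all genes passed as higher and 3.9% as lower, 38 of 42 collagens were positive and their median was 0.64. In 19 of 42 the 3 CD45- arrays lay wholly above the 3 CD45+ arrays (8.63% of all genes), and in 0 wholly below (11.4%). The 4 were Col5a1 (1.21, SE 0.23), Col5a2 (1.14, SE 0.24), Col6a1 (1.02, SE 0.20) and Col5a3 (1.01, SE 0.21). This count was 0 without B CD45+ replicate 3, 1 without replicate 2 and 2 without replicate 1, and it was 7 without B;p38α CD45- replicate 1 or replicate 3. In B;p38α, 0.441% of all genes passed as higher and 4.34% as lower, 39 of 42 collagens were positive and their median was 0.39. The largest differences were Col6a5 (1.22, SE 0.69), Col6a6 (1.07, SE 0.73), Col5a1 (0.84, SE 0.23), Col5a2 (0.77, SE 0.24) and Col8a1 (0.77, SE 0.44). The negative ones were Col17a1 (-0.26), Col28a1 (-0.25) and Col24a1 (-0.03). The smallest limma adjusted p among the collagens was 0.0693, for Col5a1, followed by Col6a1 (0.70, SE 0.20, adjusted p = 0.0823), and before adjustment p was under 0.05 for 9 collagens higher and 0 lower (7.47% and 8.42% of all genes). In 11 of 42 the CD45- arrays lay wholly above the CD45+ arrays (17.3% of all genes), and in 0 wholly below (11.2%). Without B;p38α CD45- replicate 1 the count was 1.

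The 2 sort differences were then compared directly, as the genotype difference in CD45+ minus that in CD45- cells, and 0 of 42 collagens passed (0 of 19504 genes). At an unadjusted p under 0.05, 1 was positive and 1 negative, against 1.04% and 0.913% of all genes. The family's median was 0.29 and 28 of 42 values were positive. Col26a1 (0.88, SE 0.94), Col4a3 (0.81, SE 0.71), Col28a1 (0.80, SE 0.48), Col5a3 (0.73, SE 0.30) and Col20a1 (0.70, SE 0.55) were the largest. Col4a4 (-0.60), Col6a6 (-0.54), Col6a5 (-0.47), Col10a1 (-0.46) and Col9a2 (-0.45) were the most negative. Each had a limma adjusted p of 1.00, so a passing count in B and none in B;p38α is not shown to be a difference between the genotypes.

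Setting the sorted cells beside complete tumors showed which chains stood above or below the whole lesion. These comparisons share the complete tumors, and they set dissociated cells against tissue that was not dissociated, so dissociation and selection cannot be told apart. In CD45- cells 7 collagens passed as higher and 0 as lower, against 6.24% and 6.47% of all genes, with 33 of 42 positive and a median of 0.24 (all genes 0.04). In CD45+ cells 1 passed as higher and 6 as lower, against 12.9% each way, with 13 of 42 positive and a median of -0.17 (all genes 0.00). Groups did not overlap for 2 collagens higher in CD45- cells (Col5a1 and Col6a1, 1.46% of all genes) and 0 lower (1.25%), and for 1 higher (Col10a1, 6%) and 1 lower (Col27a1, 4.03%) in CD45+ cells.

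The type I chains and Col5a1 were higher in CD45- cells than in complete tumors. Col1a1 stood at 11.57, 12.17, 11.62, 11.23 and 12.37 in B and 11.59, 11.07 and 10.69 in B;p38α complete tumors. In CD45- cells it stood at 12.65, 12.04 and 12.89 in B and 12.17, 12.43 and 12.95 in B;p38α. Every CD45- array was above 6 of the 8 complete tumors, the exceptions being B replicates 2 and 5, and the difference was 1.07 (SE 0.20, adjusted p = 0.00328). Col1a2 was 0.69 higher (SE 0.15, adjusted p = 0.00717) and Col5a1 1.21 higher (SE 0.20, adjusted p = 0.00134), the latter without overlap. Col6a1 (0.79, SE 0.13, adjusted p = 0.00143) and Col6a2 (0.82, SE 0.19, adjusted p = 0.00889) were also higher in CD45- cells. In CD45+ cells Col1a2 (0.05), Col5a1 (0.18), Col6a1 (-0.07) and Col6a2 (-0.06) lay near the complete tumors and did not pass, and Col1a1 had 0.49 (SE 0.20, adjusted p = 0.0917).

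The 6 chains that passed as lower in CD45+ cells than in complete tumors did not pass as higher in CD45- cells. As a share of the 42 they lay close to the 12.9% of all genes that passed as lower, so the family did not stand out by this count. Col27a1, a fibrillar collagen of cartilage and developing tissue, ranged from 6.87 to 7.66 over the 8 complete tumors and from 5.84 to 6.69 over the 6 CD45+ arrays, with no overlap. It differed by -1.10 (SE 0.17, adjusted p = 0.000155) in CD45+ and by -0.48 (SE 0.17, adjusted p = 0.0699) in CD45- cells. Col5a2 had -0.77 (SE 0.16, adjusted p = 0.00165) in CD45+ and 0.19 in CD45- cells, and Col5a3 had -0.59 (SE 0.14, adjusted p = 0.00423) and 0.05. Col6a5 (-1.34, SE 0.41, adjusted p = 0.022), Col20a1 (-0.98, SE 0.33, adjusted p = 0.0372) and Col9a2 (-0.39, SE 0.14, adjusted p = 0.0395) were lower in CD45+ cells with less certainty. Leaving out 1 array ended the call of Col20a1 in 10 and of Col9a2 in 9 of 20 fits, with adjusted p up to 0.0996 and 0.115. Col6a5 lost its call without B CD45+ replicate 1 or without B;p38α CD45+ replicate 1 or 2 (adjusted p from 0.0543 to 0.0597). Without B;p38α CD45+ replicate 2 the count of collagens that passed in CD45+ cells was 4.

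Col10a1, the short-chain collagen best known from hypertrophic cartilage, was the single member that passed as higher in both sorted populations. In complete tumors it stood at 5.79, 4.03, 5.68, 5.42 and 5.79 in B and at 6.45, 5.62 and 6.13 in B;p38α. In CD45+ cells it stood at 7.50, 7.41 and 8.13 in B and at 6.55, 6.69 and 7.54 in B;p38α, all above every complete tumor, although B;p38α complete replicate 1 lay just under the lowest of them. It was 1.60 higher in CD45+ (SE 0.42, adjusted p = 0.00956) and 1.67 higher in CD45- cells (SE 0.42, adjusted p = 0.0167). The CD45- values were scattered, from 5.92 in B;p38α replicate 1 to 8.86 in B replicate 3, and overlapped the complete tumors. Of 8 chondrocyte markers, 1 passed as higher in CD45+ and 2 in CD45- cells, with medians of 0.06 and 0.29. Col26a1 was higher in CD45- cells by 1.47 (SE 0.40, adjusted p = 0.024) and had 0.84 (SE 0.40, adjusted p = 0.14) in CD45+ cells. Its call ended without B CD45- replicate 1, B;p38α complete replicate 2 or 3, or B;p38α CD45- replicate 1 or 2 (adjusted p from 0.0513 to 0.0616).

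The start region of Col10a1 is printed because it carried a TATA box 32 bases before the annotated start. Matches to the TATA box at any place in the window, on either strand, were found in 5 of the 34 collagen windows (Col3a1, Col10a1, Col11a2, Col13a1 and Col17a1). The Col10a1 window lies at chr10:34389731-34390030 (plus strand), and the capitals mark its TATA box.
Col10a1: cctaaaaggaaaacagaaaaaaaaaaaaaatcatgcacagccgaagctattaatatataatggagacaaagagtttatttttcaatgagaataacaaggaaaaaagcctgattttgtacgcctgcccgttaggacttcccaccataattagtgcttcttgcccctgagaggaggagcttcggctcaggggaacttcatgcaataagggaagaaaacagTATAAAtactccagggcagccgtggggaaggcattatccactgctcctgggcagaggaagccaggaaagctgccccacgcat
None of the other motifs searched had a match in this window.

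**Figure D3:**
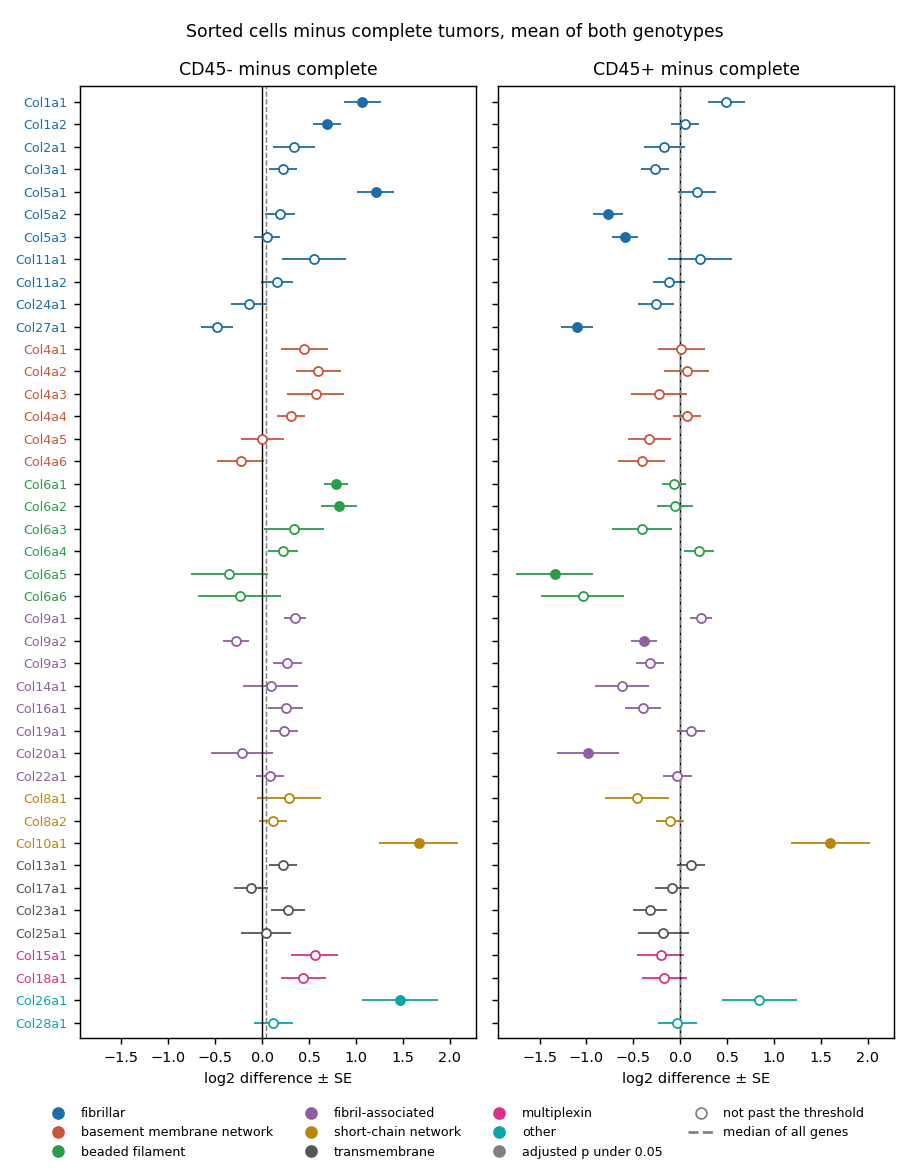
Differences of CD45- cells (left) and CD45+ cells (right) from complete tumors for 42 collagen genes by class, in log2 units with bars for ±1 SE. Filled points passed at an adjusted p under 0.05 (7 and 7 genes); Col10a1 is filled on the right side of 0 in both, and Col27a1 lies farthest below 0 relative to its error in CD45+ cells (-1.10, SE 0.17).

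Tissue markers separated complete from sorted samples strongly. Of all genes, 6.24% passed as higher and 6.47% as lower in CD45- cells, and 12.9% each way in CD45+ cells. All 10 skeletal muscle markers were lower in both sorted populations (medians -4.03 in CD45- and -3.84 in CD45+ cells), and 4 of 9 adipocyte markers were lower in each. Fibroblast markers had 2 higher and 0 lower of 11 in CD45- cells and 0 higher and 3 lower in CD45+ cells. The leukocyte list averaged 9.09 ± 0.16 in B CD45- cells, near the 9.51 ± 0.36 of B complete tumors. In B;p38α it averaged 7.57 ± 1.18 in CD45- cells and 9.10 ± 0.15 in complete tumors. The part of these markers in the differences from complete tumors was not tested.

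The partner genes were read in the same comparisons. For CD45- cells, 6.24% of all genes passed as higher and 6.47% as lower. In CD45- cells 5 of 16 modification genes were higher than in complete tumors, led by the transcription factor Creb3l1 (1.10, SE 0.32), P3h1 (0.56, SE 0.15), P3h3 (0.52, SE 0.13) and the procollagen export gene Mia3 (0.49, SE 0.13), and 0 were lower. Single genes of 3 other lists were higher: the crosslinking gene Loxl3 (0.55, SE 0.15), the proteoglycan Prelp (1.38, SE 0.29) and the receptor Mrc2 (0.96, SE 0.28). Of 10 degradation genes 4 were higher, namely Mmp14 (1.09, SE 0.18), Timp3 (0.99, SE 0.18), Timp2 (0.80, SE 0.12) and Mmp2 (0.73, SE 0.15), and of 12 TGF-beta genes 3 were, namely Smad3 (1.08, SE 0.15), Tgfbi (0.96, SE 0.17) and Tgfb1 (0.76, SE 0.20).

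In CD45+ cells 5 of 16 modification genes were lower and 1 was higher than in complete tumors, where 12.9% of all genes passed each way. The largest were the prolyl hydroxylase P4ha2 (-1.06, SE 0.28), the glycosyltransferase Colgalt2 (0.91, SE 0.23), Plod2 (-0.86, SE 0.13) and Ppib (-0.60, SE 0.11). Bmp1 (-0.53, SE 0.16) was lower among the maturation genes, and Ogn (-1.78, SE 0.52) and Aspn (-0.68, SE 0.22) among the proteoglycans. Of 8 receptors, Lair1 was higher (2.14, SE 0.33), and Ddr2 (-0.70, SE 0.25) and Itgb1 (-0.47, SE 0.12) were lower. Of 10 degradation genes 3 were higher and 2 lower, with Mmp9 (1.91, SE 0.31) and Mmp8 (1.79, SE 0.26) higher and Ctsk (-0.91, SE 0.22) and Timp1 (-0.81, SE 0.21) lower. Of 12 TGF-beta genes 7 were higher, led by Tgfb1 (1.18, SE 0.20), Smad7 (1.11, SE 0.24), Tgfbi (0.90, SE 0.17) and Skil (0.89, SE 0.13).

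The genotypes were compared in each compartment to ask whether deletion of p38α in the melanocytic cells was accompanied by another collagen profile. None of the 42 collagens passed in any compartment. The share of all genes that passed was 0% in each direction for complete tumors and for CD45+ cells, and 0.00513% in each direction for CD45- cells. The smallest limma adjusted p among collagens was 0.716 for complete tumors, 0.392 for CD45+ cells and 0.675 for CD45- cells. The values below are therefore descriptions of differences that did not pass. In simulated data 100 of 19504 genes were given a true difference of 1, and 100 a difference of 2. Of those with a difference of 1, the same fit found 32% for complete tumors, 4% for CD45+ cells and 9% for CD45- cells. These shares depend on the spread given to the simulated data, and the share for the collagens themselves was not tested. A missing call does not show equal levels.

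In complete tumors 13 of 42 collagens had a positive difference, B;p38α minus B, and the median was -0.13 (all genes -0.01). Leaving out 1 array gave medians from -0.27 to -0.00. At an unadjusted p under 0.05, 0 were higher and 7 were lower, against 2.85% and 3.76% of all genes. The most negative were Col6a6 (-1.19, SE 0.37), Col14a1 (-0.99, SE 0.30), Col6a3 (-0.73, SE 0.29), Col1a1 (-0.68, SE 0.29) and Col6a2 (-0.63, SE 0.23), with adjusted p from 0.716 to 0.743. Col14a1, which coats mature skin fibrils, stood at 9.11, 8.57, 8.86, 8.42 and 9.89 in B and at 7.79, 7.98 and 8.17 in B;p38α. It was 1 of 3 collagens, with Col3a1 and Col6a4, in which the B;p38α tumors lay wholly below the B tumors (2.54% of all genes), and 0 lay wholly above (1.92%). Col6a6 read 7.25, 7.70, 7.39, 6.39 and 8.03 in B and 5.45, 6.53 and 6.51 in B;p38α, and overlapped through B replicate 4. The most positive were Col10a1 (0.72, SE 0.39), Col26a1 (0.64, SE 0.36), Col6a5 (0.49, SE 0.34), Col4a5 (0.36, SE 0.29) and Col4a3 (0.33, SE 0.26).

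By class, 1 of 11 fibrillar chains was positive in complete tumors (median -0.30), 1 of 6 beaded-filament chains (-0.54), 3 of 6 type IV chains (-0.06) and 4 of 8 fibril-associated members (-0.05). The pairs that share a trimer had like values: Col1a1 -0.68 and Col1a2 -0.42 (SE 0.23), Col6a1 -0.45 (SE 0.18), Col6a2 -0.63 and Col6a3 -0.73. Fibroblast markers also had negative differences in 10 of 11 cases (median -0.73, list means 8.54 ± 0.40 and 7.85 ± 0.34), as did 10 of 10 skeletal muscle (median -1.94) and 9 of 9 adipocyte markers (-1.05), with 0 passing in each list. Skeletal muscle markers varied widely among the B;p38α tumors, with list means of 5.61, 8.39 and 10.66 in replicates 1 to 3 against 9.93 to 10.75 in B. Their part in the collagen values was not tested.

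Of the partner genes 0 passed between genotypes in complete tumors, and the largest differences of each list are given as values. They were Colgalt2 (0.64, SE 0.26) and P4ha3 (-0.59, SE 0.49) for modification, Lox (-1.32, SE 0.58) and Pcolce2 (-1.17, SE 0.50) for maturation, and Ogn (-1.05, SE 0.52) and Podn (-0.60, SE 0.48) for proteoglycans. Receptors had Itga11 (-0.65, SE 0.42) and Mrc2 (-0.57, SE 0.35), degradation had Mmp8 (-0.63, SE 0.31) and Mmp9 (-0.63, SE 0.40), and the TGF-beta list had Tgfb2 (0.48, SE 0.31) and Skil (0.47, SE 0.18). Of the degradation genes 9 of 10 were negative (median -0.27), and of the proteoglycans 7 of 9 (median -0.38).

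In CD45+ cells the signs ran the other way for the fibrillar class, with 11 of 11 positive (median 0.19). Over the family 29 of 42 were positive and the median was 0.16 (all genes 0.00). At an unadjusted p under 0.05, 6 were higher and 4 lower, against 5.69% and 5.08% of all genes. Col5a1 (0.77, SE 0.24), Col5a2 (0.74, SE 0.15), Col16a1 (0.67, SE 0.24), Col8a1 (0.67, SE 0.45) and Col5a3 (0.58, SE 0.17) were the most positive, with adjusted p from 0.392 to 0.563. Col8a1 stood at 8.47, 8.41 and 6.86 in B;p38α, with replicate 3 below every B array (7.64, 6.88 and 7.20). Replicate 3 was also the lowest for Col5a1 (9.62, 9.69 and 8.93) and Col16a1 (9.73, 9.71 and 8.97). Replicates 1 and 2 correlated at 0.991 across genes. Col5a2 stood at 8.94, 9.12 and 9.04 in B and at 9.83, 9.78 and 9.70 in B;p38α, the smallest adjusted p of the family in a genotype comparison within a compartment (0.392). It was 1 of 11 collagens in which all B;p38α arrays lay above all B arrays (9.16% of all genes), and 2 lay wholly below (7.35%), namely Col20a1 and Col22a1. The most negative were Col6a5 (-1.07, SE 0.42), Col6a6 (-0.97, SE 0.43), Col10a1 (-0.76, SE 0.32), Col20a1 (-0.75, SE 0.17) and Col4a3 (-0.73, SE 0.36). Y-linked transcripts differed with genotype in this compartment: their mean was 8.67, 4.30 and 5.36 in B and 3.23, 3.01 and 2.75 in B;p38α. With that mean as a covariate the family's median was 0.03. In complete tumors it was 8.93 and 9.29 in B replicates 1 and 4, 2.76 to 3.72 in the other 3 of B and 2.99 to 3.85 in B;p38α, and the median with the covariate was -0.25. With array weights, 17 collagens passed (11 higher and 6 lower) along with 5303 of all genes.

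Fibroblast markers in CD45+ cells were positive in 7 of 11 cases (median 0.49), and Schwann and neural crest markers in 7 of 8 (median 0.66), with 0 passing. The partner genes had P4ha2 (0.94, SE 0.17) and P3h3 (0.66, SE 0.17) as the largest for modification, and Loxl1 (1.02, SE 0.46) and Bmp1 (0.88, SE 0.27) for maturation, with adjusted p from 0.362 to 0.473. The other lists had Kera (-0.56, SE 0.23) and Fmod (0.41, SE 0.31) for proteoglycans, and Gp6 (-1.08, SE 0.51) and Ddr1 (0.61, SE 0.35) for receptors. Degradation had Mmp9 (-0.60, SE 0.21) and Timp1 (0.59, SE 0.25), and the TGF-beta list Ccn2 (0.64, SE 0.49) and Tgfb3 (0.51, SE 0.33). None passed. Their part in the collagen values was not tested.

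In CD45- cells 19 of 42 differences were positive and the median was -0.09 (all genes 0.05). At an unadjusted p under 0.05, 0 collagens were higher and 2 lower, against 3.5% and 3.27% of all genes. These were Col4a3 and Col20a1. Col4a3, a chain of specialised basement membranes that was dim on these arrays, stood at 6.46, 4.61 and 6.77 in B and at 4.47, 4.58 and 4.16 in B;p38α. Col20a1, a fibril-associated member, stood at 10.46, 10.68 and 10.12 in B and at 9.20, 7.89 and 9.83 in B;p38α. In both, the B;p38α arrays lay wholly below the B arrays (5.36% of all genes), by -1.54 (SE 0.55) and -1.45 (SE 0.49) with an adjusted p of 0.675 each. Col4a4 was the 1 collagen wholly above (0.38, SE 0.22, 10.6% of all genes).

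Col26a1 (-0.99, SE 0.46), Col6a5 (-0.60, SE 0.78) and Col28a1 (-0.43, SE 0.29) were the next most negative in CD45- cells. Col8a1 (0.72, SE 0.35), Col2a1 (0.58, SE 0.30), Col5a1 (0.40, SE 0.23), Col4a4 (0.38) and Col5a2 (0.36, SE 0.30) were the most positive. The type I and type VI chains lay near 0, with Col1a1 at -0.01, Col1a2 at -0.10, Col6a1 at 0.06 and Col6a2 at -0.15. Leukocyte and macrophage markers were lower in the B;p38α CD45- samples in 10 of 10 and 8 of 8 cases (medians -1.58 and -2.02), without passing. Their part in the collagen values was not tested. Of the partner genes 0 passed. The largest values were P4ha2 (1.46, SE 0.57) and P4ha3 (0.69, SE 0.35) for modification, Lox (1.49, SE 0.83) and Adamts14 (1.12, SE 0.41) for maturation, and Fmod (0.99, SE 0.68) and Lum (-0.79, SE 0.33) for proteoglycans. Receptors had Lair1 (-1.72, SE 0.62) and Ddr1 (0.84, SE 0.47), degradation had Mmp13 (2.00, SE 1.09) and Timp1 (0.80, SE 0.37), and the TGF-beta list had Tgfb2 (1.25, SE 0.47) and Smad2 (0.74, SE 0.36), with adjusted p from 0.675 to 0.686. B replicate 1, the outlying array, was the lowest of its group for P4ha2 (7.71, against 9.50 and 9.76) and Adamts14 (8.35, against 9.94 and 9.36). It was also the lowest for Tgfb2 (8.36, against 9.71 and 9.97) and Smad2 (7.79, against 9.18 and 8.68), but not for Mmp13 or Timp1. Partner genes were not refitted without this array. The sign of the family's median turned when 1 of 3 arrays was left out: omitting replicate 1 of B gave 0.06, omitting replicate 3 of B gave 0.03, and omitting replicate 1 of B;p38α gave 0.14.

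**Figure D4:**
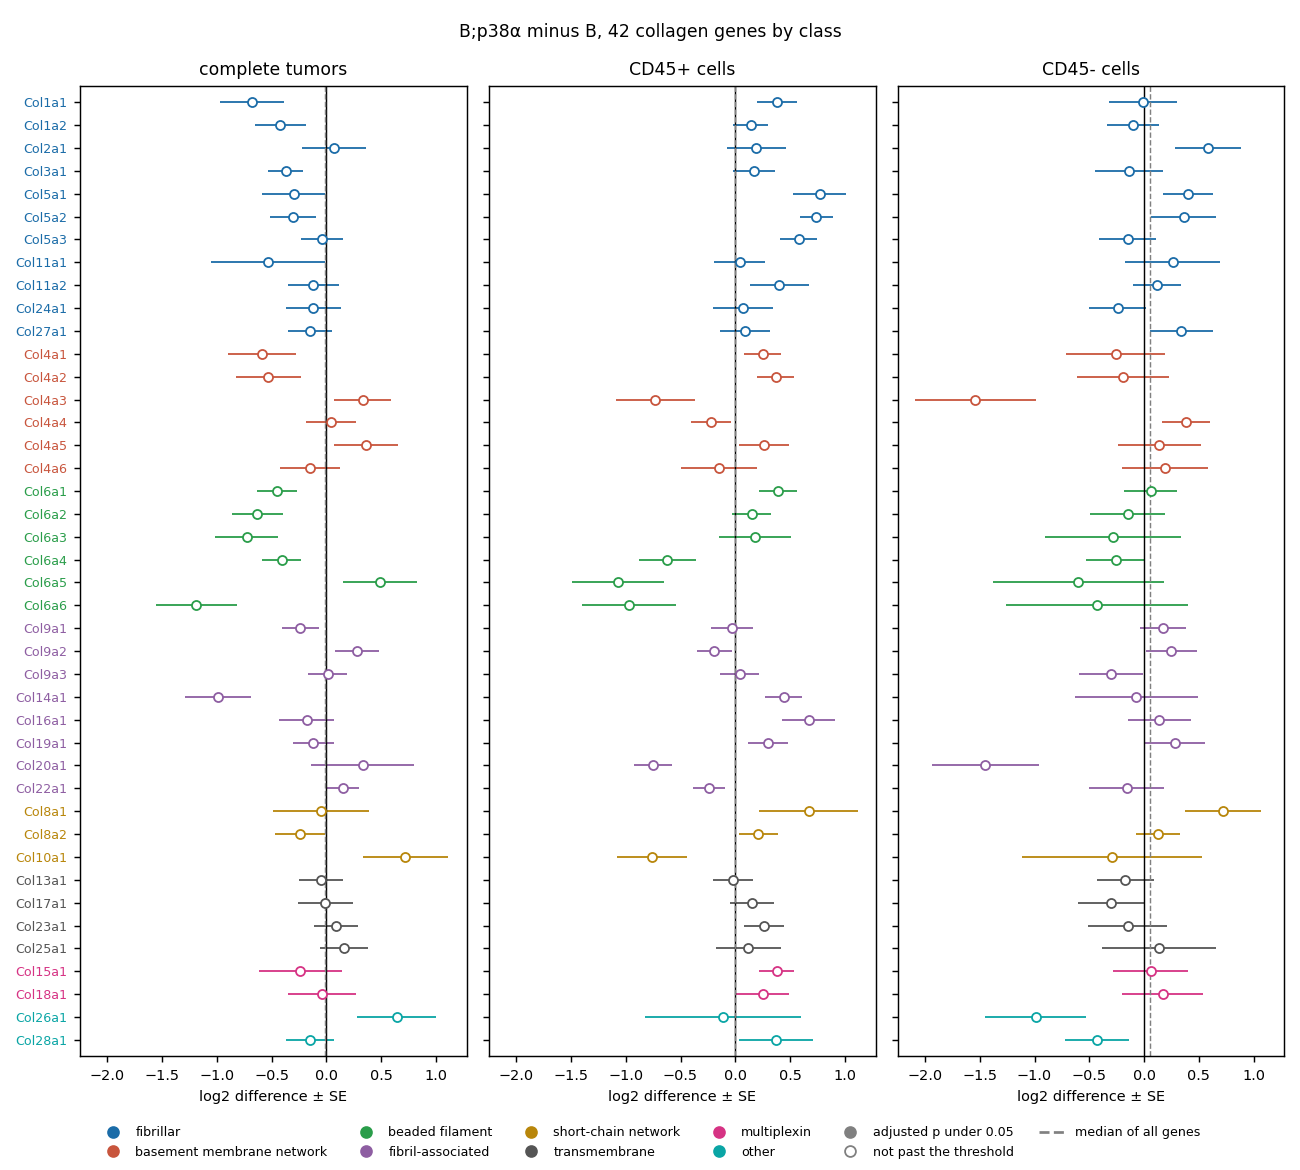
Differences of B;p38α minus B for 42 collagen genes by class in complete tumors, CD45+ cells and CD45- cells, in log2 units with bars for ±1 SE. All points are open, since 0 passed. The fibrillar points lie mostly left of 0 in complete tumors (1 of 11 positive) and right of 0 in CD45+ cells (11 of 11 positive).

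Whether the genotype difference itself differed between CD45+ cells and complete tumors was tested, and 0 of 42 collagens passed (0 of 19504 genes). All 11 fibrillar chains had positive values in this comparison (median 0.56), and 30 of 42 collagens did (median 0.26, all genes 0.02). At an unadjusted p under 0.05, 8 collagens were higher and 0 lower, against 4.06% and 3.16% of all genes. They were Col14a1 (1.43, SE 0.57), Col5a1 (1.07, SE 0.39), Col1a1 (1.06, SE 0.41), Col5a2 (1.04, SE 0.32), Col16a1 (0.85, SE 0.38), Col6a1 (0.83, SE 0.26), Col6a2 (0.78, SE 0.37) and Col5a3 (0.62, SE 0.28), with adjusted p from 0.682 to 0.692. Col6a3 had 0.92 with a larger error (SE 0.65). The most negative were Col6a5 (-1.56, SE 0.82), Col10a1 (-1.48, SE 0.85), Col20a1 (-1.07, SE 0.66), Col4a3 (-1.06, SE 0.60) and Col26a1 (-0.74, SE 0.81), with adjusted p from 0.706 to 0.847. For CD45- cells against complete tumors 0 of 42 passed as well (median 0.31, 26 positive), and before adjustment p was under 0.05 for 1 higher and 2 lower (5.78% and 3.9% of all genes). The largest there was Col4a3 at -1.87 (SE 0.60, adjusted p = 0.472), followed by Col20a1 at -1.77 (SE 0.66, adjusted p = 0.474), Col26a1 at -1.63 (SE 0.81), Col6a5 at -1.10 (SE 0.82) and Col10a1 at -1.01 (SE 0.85). The most positive were Col14a1 (0.92, SE 0.57), Col11a1 (0.79, SE 0.69), Col8a1 (0.77, SE 0.67), Col6a6 (0.76, SE 0.88) and Col5a1 (0.70, SE 0.39).

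With the 20 arrays in a single fit and the compartment as a further term, the genotype passed for 0 collagens, while 0.0256% of all genes passed as higher and 0.0564% as lower. The median was -0.05 and 17 of 42 were positive, and before adjustment p was under 0.05 for 0 higher and 2 lower (7.88% and 7.16% of all genes). All 6 beaded-filament chains were negative (median -0.32), with Col6a6 at -0.89 (SE 0.35, adjusted p = 0.263), Col6a4 at -0.43 (SE 0.13, adjusted p = 0.178), Col6a5 at -0.32 and Col6a1 at -0.03. Col4a3 (-0.57, SE 0.29) and Col20a1 (-0.55, SE 0.31) were also among the 5 most negative. The most positive were Col8a1 (0.41, SE 0.28), Col2a1 (0.27, SE 0.18), Col4a5 (0.26, SE 0.18), Col5a1 (0.24, SE 0.18) and Col5a2 (0.22, SE 0.16). The fibrillar class had 6 of 11 positive and a median of 0.08. Col6a4, Col6a5 and Col6a6 are neighbours on chromosome 9, and Col6a1 and Col6a2 on chromosome 10.

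Arrays of 1 group also differed from each other across much of the family. B;p38α complete replicate 1 lay above the rest of its group in 35 of 42 collagens (median 0.37, all genes 0.01), and its fibroblast list mean of 7.47 was the lowest of the 3. B complete replicate 5 lay above its group in 32, and replicates 1 and 4 below in 32 and 30. In CD45- cells, B replicate 2 lay below in 34 and B;p38α replicate 1 in 32, while B;p38α replicate 3 lay above in 30 (median 0.41). The fibroblast list followed that order in the CD45- arrays, with 7.58 in B replicate 2, the lowest of its group, and 7.75, 8.44 and 9.49 in B;p38α replicates 1 to 3. The mean level of the 42 genes was 8.04 ± 0.24 (SD, n = 3) in B and 7.95 ± 0.30 in B;p38α CD45- cells, 7.47 ± 0.11 and 7.55 ± 0.06 in CD45+ cells, and 7.76 ± 0.18 (n = 5) and 7.61 ± 0.22 (n = 3) in complete tumors. In CD45- cells and in complete tumors the gap between the genotypes was smaller than either SD.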

How the data were processed

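The deposited table holds log2 expression values that the authors made with RMA, which corrects background, normalizes arrays and summarizes probes, per the submitters' processing notes. No RMA version is named, and raw scans were not used here. Per the labels' protocols, tumors were dissociated mechanically and with enzymes before bead selection, and RNA was labeled with the WT PLUS kit.

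The platform annotation gave 19570 of 21244 rows a single symbol, 1674 none and 0 several. Keeping the row with the highest mean per symbol left out 66 rows and gave 19504 genes. Values ran from 1.31 to 14.15, with 0 missing and 0 columns of other samples. Arrays have no read depth, and their number limits the precision.

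Differences were tested two-sided in R 4.3.3 with limma 3.58.1 (lmFit, then eBayes), with Benjamini-Hochberg adjustment over all genes and a threshold of 0.05. Genotypes were fitted within each compartment, CD45- against CD45+ cells over the 4 sorted groups, and contrasts with complete tumors over all 6 groups, as the mean of both genotypes. The fits were tested on simulated data. Mapk14 also had an exact permutation test. Promoter windows came from RefSeq (GRCm38.p6), and figures were drawn with matplotlib 3.10.9.

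The collagens, classes, partner and marker lists and tests were chosen with earlier results of these data known, and no list was tested as a set. In each comparison the members past the threshold were named, up to 12 each way, or else the 5 largest differences each way. From each partner list, up to 4 members past the threshold or the 2 largest differences were named, in the sort, in the contrasts with complete tumors and between genotypes within a compartment. Other collagens, and markers that moved with a result, could be named too. Alternatives were the replicate number as a block, dim genes left out, repeated quantile normalization, array weights, a trended robust variance, the mean of all rows per gene, the mean of the Y-linked genes as a covariate, all 6 groups together, the most similar arrays averaged, and each array left out in turn.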

Additional observations from a re-analysis of the deposited data

Results flagged for a closer look

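In groups of 4 or more arrays, which only the 5 complete tumors of line B formed, the array farthest from its neighbours was compared with the range of its group. Of the 42 collagens, 2 had such an array beyond the 95% limit of Dixon's test, where about 1 group in 20 passes it by chance. Col10a1 stood at 4.03 in B complete replicate 2, against 5.42 to 5.79 in the other 4 tumors (gap over range 0.79). Col9a1, a fibril-associated chain that was dim on these arrays, stood at 4.41 in B complete replicate 5, against 4.82 to 4.94 in the other 4 (gap over range 0.76).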

How the results depend on the processing

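Same-numbered samples did not deviate together (correlations of deviations from -0.57 to 0.36), so the numbers were not taken as pairs. With the replicate number as a block, 3 collagens (Col5a1, Col5a2 and Col6a1) in place of 9 passed for CD45- against CD45+ cells, and 0 in place of 4 in B. Col6a2 also lost its call for CD45- cells against complete tumors (adjusted p = 0.0505), and Col9a2 for CD45+ cells against complete tumors (adjusted p = 0.0724). Array weights gave 17 collagens for the genotypes in CD45+ cells, where 0 had passed without weights, 7 for the sort in B, 4 in B;p38α, 12 in place of 7 for CD45+ cells against complete tumors, and 4 for the genotype difference in CD45+ cells minus that in complete tumors. With dim genes left out the sort gave 8 in B and 2 in B;p38α, and the median of the last contrast was 0.48 in place of 0.26. A trended robust variance gave 7 and 2, and all 6 groups together gave 1 in B;p38α. With the similar arrays averaged, 4 passed for CD45+ cells against complete tumors. Leaving out 1 array gave 0 to 7 for the sort in B, 0 to 1 in B;p38α, 4 to 8 for CD45+ cells against complete tumors, and a median of 0.19 to 0.47 for the last contrast. The cause of these changes was not tested. No share of all genes is given beside the counts under these alternatives, so they are not results about collagens in particular. Among the named differences recomputed, signs turned only for ones that had not passed: leaving out 1 array gave -1.18 to 0.11 for Col6a5 between genotypes in CD45- cells, -0.24 to 0.15 for Col24a1 and -0.65 to 0.07 for Col28a1 in the B;p38α sort, and -1.22 to 0.18 for Col26a1 in the last contrast. For the genotype difference in CD45+ minus that in CD45- cells it gave -1.31 to 0.16 for Col6a6, -1.17 to 0.11 for Col6a5 and -1.13 to 0.17 for Col10a1. Col24a1 in the B;p38α sort was also 0.01 with the Y-linked covariate and 0.07 with averaged arrays. The family's median between genotypes in CD45- cells, -0.09, was 0.09 with array weights and 0.03 to 0.14 when replicate 1 or 3 of B, or replicate 1 of B;p38α, was omitted, and that over all compartments, -0.05, was 0.03 with array weights. The other medians kept their sign, and the other counts stayed within 1.5 times, under the alternatives run. Among these medians, that between genotypes in complete tumors, -0.13, lay between -0.27 and -0.00 when 1 array was left out. Partner and marker genes were not recomputed under the alternatives.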
